A study of Mus musculus with 18 samples.

Results

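Mt1, Mt2 and Mt3 encode metallothioneins, small cysteine-rich proteins that bind zinc and copper. They were followed in the mouse cochlear nucleus, the brainstem nucleus that receives the auditory nerve, in pups of 7, 14 and 21 days (P7, P14 and P21), ages on either side of the onset of hearing. The members were chosen by gene, with earlier results of these data known. Each had 1 probe set on an oligonucleotide array of 22690 probe sets: 1422557_s_at for Mt1, 1428942_at for Mt2 and 1420575_at for Mt3. All 3 were in the deposited table, and all 3 lay above the limit on dim probe sets that left 15296 to be tested.

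The groups were P7 (3 arrays), P14 (2 arrays) and P21 (3 arrays). All were cochlear nuclei of C57BL/6J mice, with no treatment named and no sex given, and the RNA on each array came from a pool of 5 pups. The labels of P21 disagree on how many replicates there were, and all 3 P21 arrays were used. Pooling averages over pups, and nothing in the labels says that the pools came from different litters, so the p-values measure the spread between these pools only. The series also compared P7 with P21 on a spotted cDNA array in 5 hybridisations, which were not used here because no table at hand names the genes of its spots.

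Metallothionein 1 and 2 are made in many tissues, in brain chiefly by astrocytes, and their transcription is raised by zinc through the metal-responsive factor MTF1, and also by glucocorticoids and inflammatory signals. Metallothionein 3 was first described as a growth inhibitory factor of the brain. It is found in astrocytes and in zinc-rich neurons, and its gene responds little to the metals that induce the other two. The 4 mouse genes stand side by side on chromosome 8 in the order Mt4, Mt3, Mt2, Mt1, between Bbs2 and Nup93 in the RefSeq annotation of GRCm38.p6. Mt4 is known mainly from stratified epithelia and is not among the members.

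The sequences just before the annotated starts are shown because the members share a metal-binding role while only some are known as metal-inducible. Each is the 250 bases before the start given by RefSeq on GRCm38.p6, plus strand, at chr8:94178839-94179088 for Mt1, chr8:94172368-94172617 for Mt2 and chr8:94152357-94152606 for Mt3. Capitals mark the core of the metal response element, the site known to bind MTF1, in Mt1 and Mt2, and a run of the triplet CTG in Mt3.
Mt1: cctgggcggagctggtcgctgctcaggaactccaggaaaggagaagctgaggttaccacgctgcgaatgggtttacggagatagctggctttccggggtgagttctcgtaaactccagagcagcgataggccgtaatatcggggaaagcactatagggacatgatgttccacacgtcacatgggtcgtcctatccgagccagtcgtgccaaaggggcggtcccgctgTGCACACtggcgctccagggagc
Mt2: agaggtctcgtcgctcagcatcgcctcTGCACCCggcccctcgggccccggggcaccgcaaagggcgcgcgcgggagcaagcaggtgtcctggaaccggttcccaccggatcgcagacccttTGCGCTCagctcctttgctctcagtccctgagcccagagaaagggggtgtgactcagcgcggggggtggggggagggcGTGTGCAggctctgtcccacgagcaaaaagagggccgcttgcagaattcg
Mt3: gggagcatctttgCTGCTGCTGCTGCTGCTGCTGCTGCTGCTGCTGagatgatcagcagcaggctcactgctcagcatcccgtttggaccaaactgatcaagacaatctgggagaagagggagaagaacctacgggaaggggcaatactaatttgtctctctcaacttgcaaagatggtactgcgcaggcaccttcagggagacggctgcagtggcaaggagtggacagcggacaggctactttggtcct

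The core was searched as TGCACNC or TGCGCNC on both strands. Mt2 had 3 matches, at -223 to -217 and -128 to -122 on the plus strand and at -50 to -44 on the minus strand, counted from the start. Mt1 had 1 match, at -23 to -17, and Mt3 had 0. Of the 32851 windows of the same length before annotated mouse starts, 21.4% held at least 1 match, 5.17% at least 2 and 1.26% at least 3. The GC box GGGCGG, searched in the same way, occurred at -247 to -242 and at -37 to -32 before Mt1 and was not found before Mt2 or Mt3. At least 1 GC box was found in 32.7% of all windows. The TATA box, searched as TATAAA, was not found within the windows of Mt1, Mt2 or Mt3, and 12.4% of all windows held it. The Mt3 window held 11 copies of CTG in a row, from -237 to -205, a run of that length or more found in 4 of the 32851 windows. The G and C content was 58.8% for Mt1, 67.6% for Mt2 and 54.8% for Mt3, against a median of 52.4% over all windows. The RefSeq entry of the Mt1 gene begins 44 bases into its window, so the start used is not the most upstream one annotated. A match describes letters only, and the windows leave out everything further away and everything after the start used. The counts therefore hold for these windows and not for whole promoters, and sites outside them were not searched. For any start further downstream, bases close to it would lie outside these windows. The counts thus do not show that Mt1 has fewer metal sites than Mt2, or that any of the 3 genes lacks a TATA box.

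**Figure D1:**
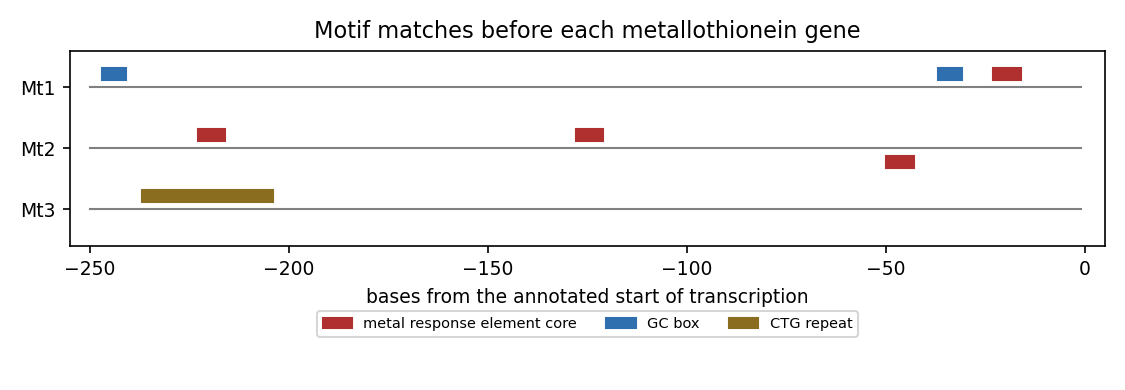
Positions of motif matches in the 250 bases before the annotated starts of Mt1, Mt2 and Mt3, with distance from the start in bases on the x axis. Blocks above a line are matches on the plus strand and the block below the Mt2 line is on the minus strand. Of the motifs drawn, the Mt2 window carries 3 metal response element cores, that of Mt1 carries 1 and 2 GC boxes, and that of Mt3 carries the CTG run alone. Bases after the start were not searched.

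The intensities below are the authors' values, which had a 2%-trimmed mean of 250.1 on each array. The ratio of the 3′ to the 5′ control probe set, a sign of RNA integrity, was 0.782 to 0.904 for Gapdh and 1.01 to 1.17 for beta-actin. The 5′ control probe set for 18S RNA varied widely. It read 155, 3530 and 284 at P7, 43.6 and 38.6 at P14, and 1197, 944 and 6137 at P21, in replicate order. Replicate 1 of P7 and replicate 1 of P21 had the lowest beta-actin (6457 and 5113 at the 3′ probe set, against 7270.4 to 7943 on the other arrays). They also had the lowest Gapdh of their age (4799 at P7 and 5023 at P21) and the highest 3′ to 5′ ratios of beta-actin (1.17 and 1.13). No marker of a cell type could be checked, since the other probe sets have no gene names here. In a bulk sample, more cells of a type and more RNA in each cell cannot be told apart.

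Mt1 was low at P7 and high at both later ages. Its intensities were 1338, 1451 and 1342 in P7 replicates 1, 2 and 3, then 6238 and 6127 in P14 replicates 1 and 2, and 5340, 6672 and 7124 in P21 replicates 1, 2 and 3. Every P14 and P21 array lay far above every P7 array, and the P14 values fell within the P21 range. The means were 1377 ± 64.2 (SD, n = 3) at P7, 6182 ± 78.0 (SD, n = 2) at P14 and 6378 ± 927 (SD, n = 3) at P21. The probe set name ends in _s_at, the maker's mark for probes that can match more than 1 transcript, so signal of a close relative may be included.

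Mt2 followed the same course. Its intensities were 1661, 962 and 1017 at P7, then 3212 and 3682 at P14, and 3355, 4359 and 4030 at P21, in replicate order. Again no later array overlapped a P7 array, but P7 replicate 1 stood well above the other 2. The means were 1213 ± 389 (SD, n = 3) at P7, 3447 ± 332 (SD, n = 2) at P14 and 3915 ± 512 (SD, n = 3) at P21.

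Mt3, the brain-enriched member, was the most variable. Its intensities were 1812, 729 and 864 at P7, then 2073 and 2405 at P14, and 3301, 2343 and 1753 at P21, in replicate order. Both P14 arrays lay above all P7 arrays, whereas the lowest P21 array, replicate 3, was below P7 replicate 1. The means were 1135 ± 590 (SD, n = 3) at P7, 2239 ± 235 (SD, n = 2) at P14 and 2465 ± 781 (SD, n = 3) at P21. Mt3 was highest on replicate 1 both at P7 and at P21, the same arrays that had the lowest beta-actin and its highest 3′ to 5′ ratios. At P21 that ratio was 1.13, 1.09 and 1.05 in replicates 1, 2 and 3, in the same order as Mt3. At P7 it was 1.17, 1.07 and 1.01, although Mt3 was lower in replicate 2 than in replicate 3. At P14 it was 1.05 and 1.02, the opposite order to Mt3. The 18S control ran in the opposite order to Mt3 over all P7 arrays. It did so at P14 as well, where its values were close (43.6 and 38.6). At P21 it was highest where Mt3 was lowest (replicate 3). Between P21 replicates 1 and 2, however, the 18S control and Mt3 were both higher in replicate 1. The part of the control intensities in the Mt3 values was not tested.

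**Figure D2:**
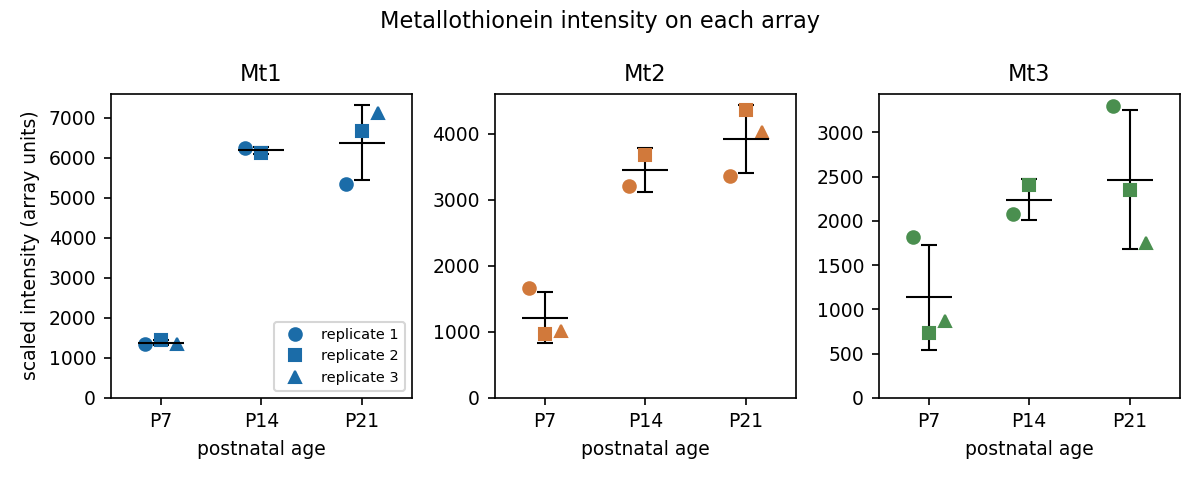
Scaled intensity (array units, linear axis from 0) of Mt1, Mt2 and Mt3 on each array at P7, P14 and P21, with symbols for replicate numbers and black bars for the mean and SD. Mt1 and Mt2 separate P7 from the later ages without overlap, and for Mt3 P21 replicate 3 (1753) lies below P7 replicate 1 (1812).

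At P7 the members differed in spread, while at the later ages some were alike. On the scale of the log2 of intensity plus 12.5, used for all tests, the SD at P7 was 0.07 for Mt1, 0.43 for Mt2 and 0.69 for Mt3, where the median of all probe sets tested was 0.15. At P7, 98.7% of probe sets tested had a smaller SD than Mt3, and 94.6% had a smaller one than Mt2. At P21 the SD was 0.22 for Mt1, 0.19 for Mt2 and 0.45 for Mt3, against a median of 0.17. At P14, with 2 arrays, it was 0.02, 0.14 and 0.15 in the same order of genes, against a median of 0.10. The SDs were not tested against each other.

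The comparison of P21 with P7 covered the whole period. All 3 members rose in a limma model across the probe sets tested (adjusted p under 0.05 by Benjamini-Hochberg), where 17.1% of all probe sets passed in that direction. Mt1 changed by 2.19 on the log2 scale (SE 0.11, limma adjusted p = 8.51e-07), a 4.57-fold higher value at P21 on this scale. It ranked 72nd among the rises of 15296 probe sets. Mt2 rose by 1.72 (SE 0.19, limma adjusted p = 7.09e-05), or 3.29-fold, and 0.968% of probe sets tested had a larger rise. Mt3 rose by 1.18 (SE 0.31, limma adjusted p = 0.012502), or 2.26-fold, and 2.76% had a larger rise. In 2 of the 3 members every P21 array exceeded every P7 array, which was so for 22.1% of all probe sets. With the poly-A control found on each array as a block, Mt3 did not pass (log2 change 1.74, limma adjusted p = 0.0748). In that setting P21 rests on replicate 1, the array with the highest Mt3 and the lowest beta-actin, whose poly-A control averaged 897 against 4175 to 8938 on the other arrays.

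The members were already higher at P14 than at P7. All 3 passed, where 12.9% of all probe sets were called higher at P14. Mt1 changed by 2.16 on the log2 scale (SE 0.12, limma adjusted p = 1.08e-05), the 6th smallest p-value of the 15296. That of Mt2 was 1.54 (SE 0.21, limma adjusted p = 0.00058). Mt3 passed narrowly, at 1.09 (SE 0.35, limma adjusted p = 0.0385). In all 3 members both P14 arrays exceeded every P7 array, as in 24.3% of all probe sets. The call of Mt3 was lost in 9 of 18 alternatives, among them without either P14 array (log2 change 1.19 without replicate 1 and 0.98 without replicate 2, limma adjusted p = 0.113 and 0.184). It was also lost without P7 replicate 2 (0.83, limma adjusted p = 0.106), without P7 replicate 3 (0.95, 0.0988) and without P21 replicate 2, where the change itself is the same (1.09, 0.0577). The calls of Mt1 and Mt2 were kept in all 18.

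Between P14 and P21 none of the 3 members passed in limma, and 0 had an unadjusted p under 0.05, where 2.05% of all probe sets passed in either direction. The log2 change was 0.03 for Mt1 with a 95% interval of -0.24 to 0.31. For Mt2 it was 0.18 (-0.29 to 0.64), and for Mt3 it was 0.09 (-0.67 to 0.86). The interval for Mt1 is narrow beside its earlier rise of 2.16, while that for Mt3 reaches 0.86, beside an earlier rise of 1.09.

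**Figure D3:**
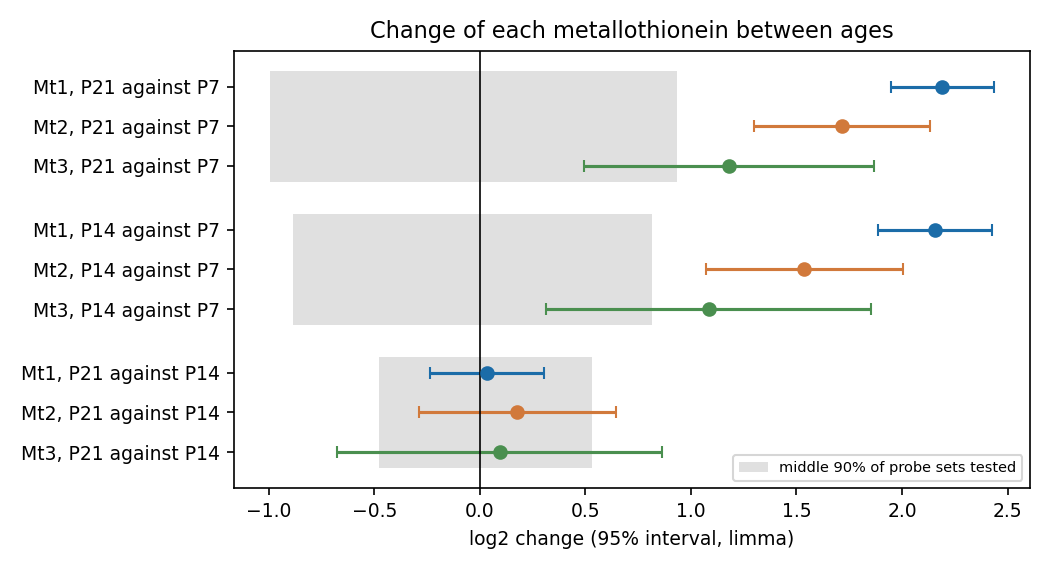
Log2 change of each member for P21 against P7, P14 against P7 and P21 against P14, with 95% intervals from limma, and in grey the middle 90% of all probe sets tested. The changes against P7 lie above the grey band for all 3 members, although the Mt3 intervals reach into it, and those of P21 against P14 lie within it.

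The shape of the time course was tested by a contrast of its own, the change before P14 minus the change after it. Mt1 passed, with a difference of 2.12 (SE 0.22, limma adjusted p = 0.00165), where 3.93% of probe sets passed with the more positive change before P14. Mt2 had a difference of 1.36 (SE 0.38) and an adjusted p of 0.0537 in limma, and Mt3 a difference of 0.99 (SE 0.62) and an adjusted p of 0.344. Mt2 passed without P7 replicate 1 (1.61, limma adjusted p = 0.00653). With replicate 1 of both P7 and P21 left out, an alternative chosen after seeing the data for the low control intensities of these arrays, Mt2 (1.50, limma adjusted p = 0.00377) and Mt3 (1.62, limma adjusted p = 0.0117) both passed. These arrays also held the highest Mt3 value of their age (1812 at P7 and 3301 at P21), so their removal raises this contrast for Mt3 by construction. That pass therefore cannot show the shape of the Mt3 course. P7 replicate 1 was likewise the highest Mt2 value at P7 (1661). Quantile normalization moved the median of all probe sets in this contrast to 0.0002, against -0.10 with scaling alone, and Mt1 passed there as well.

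By P14 the mean log2 intensity of Mt1 had covered 0.984 of its distance from P7 to P21. The share was 0.896 for Mt2 and 0.920 for Mt3. Leaving out each array in turn gave 0.932 to 1.02 for Mt1, 0.839 to 0.954 for Mt2 and 0.775 to 1.15 for Mt3, and the share of Mt1 was above that of Mt2 in each of the 8 settings. The share of Mt3 was above that of Mt1 in 2 of the 8 and below that of Mt2 in 3, so its place was not settled, and no test of the shares was run.

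The sizes of the rises were compared within arrays, where a difference between members in log2 intensity hardly depends on the array's scaling. The difference Mt1 minus Mt3 was 1.01 higher at P21 than at P7, and 1.07 higher at P14 than at P7. An exact permutation test of the differences among the 3 ages together, over all 560 assignments of the arrays to the ages, gave p = 0.186, adjusted over the 3 pairs to 0.279. Mt1 minus Mt2 was 0.48 higher at P21 than at P7 and 0.62 higher at P14 than at P7 (exact p = 0.0571, adjusted 0.171). Its values of 0.61 to 0.82 at P21 and 0.73 to 0.95 at P14 all lay above the -0.31 to 0.59 at P7, narrowly so at P21. How often other pairs of probe sets separate in this way was not counted. The -0.31 belonged to P7 replicate 1, and without that array this pair was 0.21 higher at P21 than at P7. Mt2 minus Mt3 was 0.54 and 0.45 higher (exact p = 0.357, adjusted 0.357). The smallest p that these assignments allow is 0.00357. No pair passed after adjustment, and single pairs of ages were not tested on their own.

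**Figure D4:**
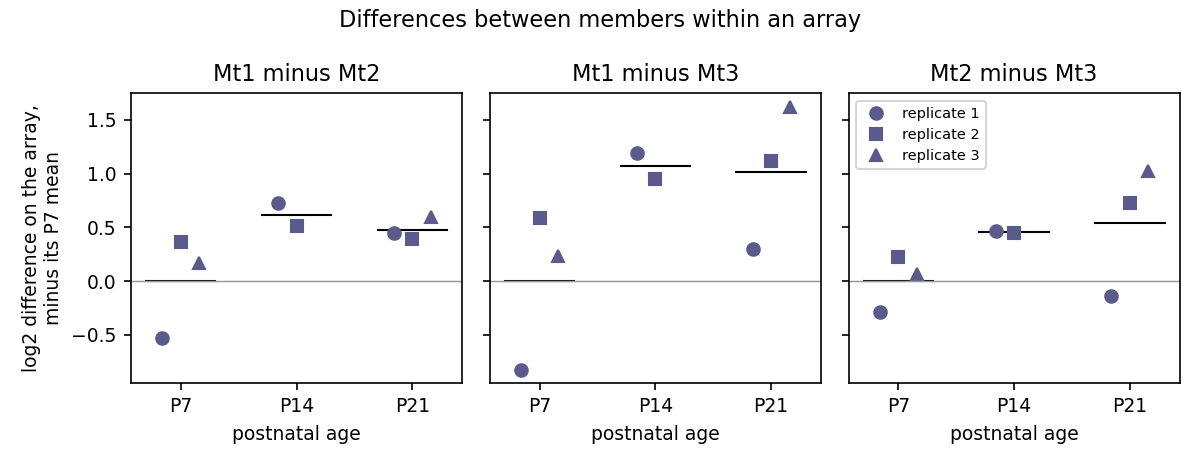
Difference in log2 intensity between 2 members on the same array, less its mean at P7, for the 3 pairs at P7, P14 and P21, with symbols for replicate numbers and lines for the means. Replicate 1 of P7 is the lowest P7 point in each panel, and replicate 1 of P21 is the lowest P21 point in both panels that involve Mt3.

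The likeness of the 3 time courses was described by Pearson's r of log2 intensity over the 8 arrays, which share the steps between ages. It was 0.95 between Mt1 and Mt2, 0.87 between Mt2 and Mt3 and 0.75 between Mt1 and Mt3. Seen from Mt2, 0.856% of the other probe sets tested had a higher r than Mt1 did. Seen from Mt1, 2.98% had a higher r than Mt2 and 16.4% a higher r than Mt3. With the mean of each age removed, r was 0.17 between Mt1 and Mt2, 0.61 between Mt2 and Mt3 and -0.67 between Mt1 and Mt3. Mt1 and Mt3 shared the step after P7, while among arrays of 1 age Mt1 did not rise with Mt3 and hardly with Mt2. These within-age values rest on 8 arrays, of which the P14 deviations mirror each other, and they were not tested.

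Of the other probe sets tested, 1157 (7.56%) had an r above 0.9 with Mt1, 738 (4.83%) with Mt2 and 144 (0.941%) with Mt3. The probe sets closest to the mean course of the members were 1417152_at (r = 0.99; 291 to 380 at P7, 669 to 750 at P14 and 632 to 733 at P21) and 1427685_a_at (r = 0.99; 67.4 to 94.8, 193 to 195 and 221 to 229). The tables at hand do not pair them with genes.

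The control probe sets for beta-actin and Gapdh gave a second scale. Their mean log2 intensity was 0.11 higher at P21 than at P7 and 0.19 higher at P14 than at P7. Relative to them, the change of P21 against P7 was 2.08 for Mt1, 1.61 for Mt2 and 1.07 for Mt3. That of P14 against P7 was 1.97, 1.35 and 0.89 in the same order of genes.

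**Figure D5:**
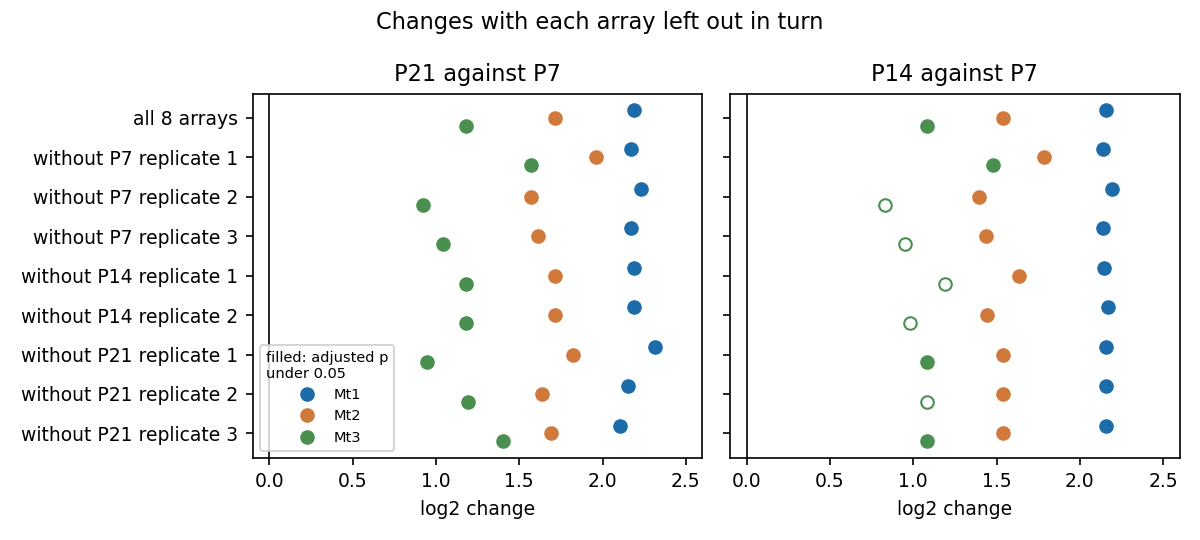
Log2 change of Mt1, Mt2 and Mt3 for P21 against P7 and P14 against P7 with all 8 arrays and with each array left out in turn, where filled points have an adjusted p under 0.05 in limma. Mt1 keeps a change of at least 2.11 and Mt2 of at least 1.40 in both panels, and Mt3 ranges from 0.92 to 1.57 against P7 at P21 and from 0.83 to 1.48 at P14, with 5 open points there.

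Leaving out 1 array thus moved Mt3 the most. Without P7 replicate 1, the array with the high Mt3 value, its log2 change at P21 was 1.57, and without P7 replicate 2 it was 0.92. The corresponding range was 2.11 to 2.31 for Mt1 and 1.57 to 1.96 for Mt2. In each of these settings all 3 members passed for P21 against P7.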

How the data were processed

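Total RNA of cochlear nucleus was measured on 1-colour oligonucleotide arrays. The deposited values are intensity values on a linear scale, 1 per probe set, scaled by the authors to a common trimmed mean, and GCOS is named in the submitters' processing notes without a version. Arrays give no read depth, and their number limits the precision. The members, lists and tests were chosen with earlier results of these data known.

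Arrays were rescaled to a 2%-trimmed mean of 250.1. The 64 control probe sets and those with a mean under 50.0 were not tested. limma 3.58.1 (R 4.3.3, lmFit and eBayes with trend) was fitted to log2(intensity + 12.5) for all 8 arrays and 15296 probe sets, two-sided, with Benjamini-Hochberg adjustment and a threshold of 0.05. Fold changes on this scale understate dim probe sets. The fitting code was tested on simulated data.

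All 3 members were named whatever their values. The rule for the most similar genes asked for named genes and was shortened to the 2 nearest probe sets, because 0 of 22690 probe set identifiers matched the gene table. The 12 lists of pathway and cell type genes were not run for the same reason. Sequences are RefSeq's, matched by symbol for all 3 members. The alternatives were 2 pseudocounts, no filter, quantile normalization, the values as deposited, no trend, only the 2 ages compared, 2 blocks, each array left out, and 1 pair of arrays left out.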

Additional observations from a re-analysis of the deposited data

Results flagged for a closer look

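Mt1 (1422557_s_at) had a larger change before P14 than after it, with a difference of 2.12 on the log2 scale (SE 0.22, limma adjusted p = 0.00165). It is given here because the same gene's changes over 2 intervals differed in a test of that difference. The adjusted p ran from 0.000761 to 0.0412 over its 17 alternatives. Each age had 2 or 3 arrays, and single arrays were not tested for standing apart.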

How the results depend on the processing

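Mt1 and Mt2 passed for P21 against P7 and P14 against P7 in all 18 alternatives, with log2 changes of 1.97 to 2.31 and 2.04 to 2.20 for Mt1 and of 1.57 to 2.07 and 1.40 to 1.78 for Mt2. For P14 against P7, Mt3 did not pass with no filter (1.09, where more probe sets were tested), quantile normalization (0.99), no trend (1.09) or the poly-A control as a block (1.11), nor on leaving out any of 5 of the 8 arrays (0.83 to 1.19; up to 1.48 over all 8). Under the same block, which leaves P21 with replicate 1 alone, Mt3 at P21 against P7 (1.74) did not pass, and Mt1 at P21 against P14 was -0.19. Some of these settings have fewer arrays or more probe sets tested and others have neither, and why the results changed was not tested. The changes of P21 against P14, which passed nowhere, included 0 on leaving out single arrays, at -0.051 to 0.16 for Mt1 and -0.14 to 0.32 for Mt3. The interval contrast of Mt2 was 1.16 to 1.61 and passed without P7 replicate 1. Without replicate 1 of P7 and of P21 it was 1.50 for Mt2 and 1.62 for Mt3, both passing, and Mt3 at P21 against P14 was -0.14. These arrays held the highest Mt3 values of P7 and P21, so the direction of both Mt3 shifts follows from leaving them out. In a fit with the replicate block, Mt1, Mt2 and Mt3 changed by 2.19, 1.72 and 1.18 at P21 against P7, and it changed no call. Of the 7 same-numbered pairs of arrays, 3 had deviations correlated above 0.1 (-0.04 to 0.28). The highest, 0.28, was P7 replicate 1 with P21 replicate 1, while the different-numbered P7 replicate 2 and P21 replicate 3 had 0.22. The values of the 2 P14 arrays mirror each other, so these counts do not settle whether the numbers pair the arrays. The main fit did not treat them as pairs. Within-array differences did not pass in any of 10 alternatives. The alternatives for the gene lists were not run.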
